A study of Mus musculus with 2 samples.

Results

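Collagen chain genes encode the chains of the fibrils, networks and filaments that give cartilage, bone and connective tissue their strength. They were taken as all rows of the count table whose symbol has the form of a collagen chain name, such as Col2a1, which gave 44 of 21983 genes. Of these, 37 had at least 20 counts summed over both libraries and are described here. The other 7 had too few reads for a ratio: Col6a5 (0 counts in the control library and 7 in the treated one), Col4a6 (3 and 1), Col6a4 (4 and 0), Col6a6 (2 and 0), Col25a1 (0 and 2), Col13a1 (1 and 0) and Col26a1 (0 and 0). Around this limit, Col22a1 was the member just inside with 21 summed counts, and Col6a5 the one just outside with 7.

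The data are RNA sequencing counts from primary chondrocytes, the cells that make cartilage, taken from wild-type (WT) mice. The cells, labelled MCC, were kept for 3 days in medium with 10% FBS plus either PBS (the control) or recombinant mouse Sparcl1 (50 ng/ml), with 1 library per group. The age, sex and strain of the mice and the joint or cartilage they came from are not given in the labels used here. Sparcl1 is a secreted relative of Sparc, a glycoprotein of the matrix that binds collagen, and the comparison asks which genes differ when it is added to the medium. With 1 library per group there is no replicate check on any difference, so no p-value is given.

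The control library held 29858851 counts in all and the treated one 26871933, and levels are given as CPM, counts relative to the scaled library size. All 10 chondrocyte markers were detected, with Acan, the aggrecan gene, at 119 and 83.7 CPM. Col2a1, Comp, Sox9, Acan and Hapln1 were at 68.5 CPM or more in both libraries. The others, Chad, Matn1, Cytl1, Matn3 and Snorc, were low, at 4.07 CPM or less in both. Macrophage markers were present too: all 10 were measured, and their summed level was 2117 CPM in the control and 2412 with Sparcl1. Without Lyz2, at 1327 and 1640 CPM, the other 9 summed to 791 and 772 CPM. Of the 10 macrophage markers 6 had ratios below 1, beside 50.4% of all genes with at least 20 summed counts. Endothelial markers summed to 2.85 and 2.10 CPM, adipocyte markers to 0.44 and 0.40 with Lep and Cidec at 0, and epithelial markers to 3.56 and 3.31 with Krt8 and Krt18 at 0. In bulk libraries, fewer cells of a type and less RNA per cell cannot be told apart.

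A collagen molecule is made of 3 chains wound around each other, and each winding stretch repeats glycine at 1 position in 3, since no larger residue fits at the centre. Fibril-forming chains carry 1 long unbroken repeat. FACITs (fibril-associated collagens with interrupted triple helices) sit on fibril surfaces, network chains form sheets such as basement membranes, beaded-filament chains form microfibrils near cells, and transmembrane collagens span the cell surface. Collagens II, IX and XI build the cartilage fibril, whereas collagens I, III and V build fibrils of bone, tendon and skin, and collagen I is a familiar mark of chondrocytes that lose their identity in culture.

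The repeat can be read in the coding sequence, as codons that begin with GG, 1 in every 3. In the longest coding transcript of each gene (GENCODE M21, GRCm38), the 11 fibrillar chains had an unbroken run of 216 to 344 such glycine-led triplets and 21 to 33 coding exons of exactly 54 bases. The other 26 measured chains had longest runs of 28 to 113 triplets and 0 to 28 exons of 54 bases. Col2a1, Col1a2 and Col5a2 each had a run of 339, Col3a1 a run of 344, and Col24a1 and Col27a1 shorter runs of 216 and 217. Within the FACIT group, Col9a1, Col9a2 and Col9a3 each had a longest run of 113 triplets and 14 such exons, while Col12a1 and Col14a1 each had 32 triplets and 4 exons.

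**Figure D1:**
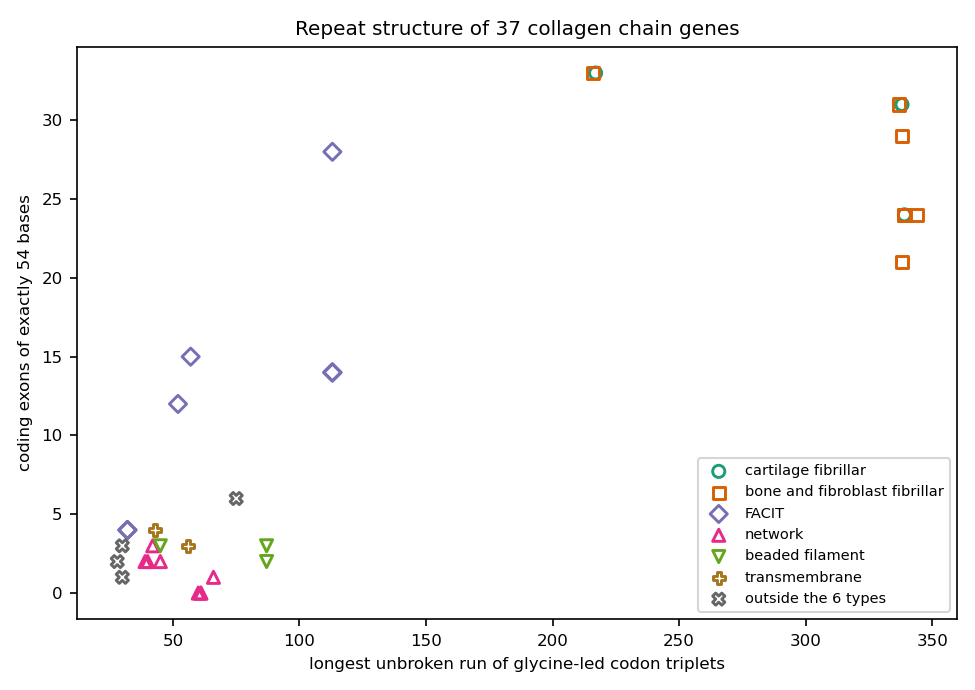
Longest unbroken run of glycine-led codon triplets (x axis, number of triplets) against the number of coding exons of exactly 54 bases (y axis) for the 37 measured collagen chain genes, with colour and shape by type; some symbols lie on top of each other. The 11 fibrillar chains sit at 216 triplets or more, and all other chains at 113 or fewer.

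The sequences below show this repeat in the chains that carry most of the collagen reads or stand for a type. Each is the first 54-base coding exon that opens with a glycine codon, written 5′ to 3′ on the coding strand of GRCm38, with every codon that begins with GG in capitals. Col10a1 has no exon of that size, since its repeat lies in a single coding exon of 1886 bases, and the first 54 bases of its longest run are shown.
Col2a1, chr15:97998545-97998598, - strand, coding exon 6: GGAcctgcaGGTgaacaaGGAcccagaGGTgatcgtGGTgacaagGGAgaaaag
Col11a1, chr3:114108281-114108334, + strand, coding exon 15: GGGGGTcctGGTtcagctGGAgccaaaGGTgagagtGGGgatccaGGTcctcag
Col1a1, chr11:94939904-94939957, + strand, coding exon 8: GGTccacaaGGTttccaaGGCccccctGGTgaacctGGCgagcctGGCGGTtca
Col1a2, chr6:4515481-4515534, + strand, coding exon 8: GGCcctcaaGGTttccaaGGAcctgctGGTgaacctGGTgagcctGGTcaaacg
Col3a1, chr1:45325360-45325413, + strand, coding exon 6: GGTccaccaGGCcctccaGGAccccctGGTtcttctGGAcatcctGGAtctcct
Col9a1, chr1:24202014-24202067, + strand, coding exon 11: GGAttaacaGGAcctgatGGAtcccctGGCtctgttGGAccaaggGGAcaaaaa
Col12a1, chr9:79614349-79614402, - strand, coding exon 54: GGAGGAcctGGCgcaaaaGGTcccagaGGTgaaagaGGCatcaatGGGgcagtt
Col4a1, chr8:11245211-11245264, - strand, coding exon 7: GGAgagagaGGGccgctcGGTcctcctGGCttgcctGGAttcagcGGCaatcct
Col6a1, chr10:76719623-76719676, - strand, coding exon 9: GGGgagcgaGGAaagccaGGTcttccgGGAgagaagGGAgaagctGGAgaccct
Col10a1, chr10:34394928-34394981, + strand, start of its longest run in coding exon 2: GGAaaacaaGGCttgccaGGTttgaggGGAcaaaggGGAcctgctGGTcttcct
In all 10 stretches a glycine codon opens each set of 3 codons. The codons in lower case are at the variable positions of the repeat. In Col11a1, Col1a1 and Col12a1 a variable position also holds a codon that begins with GG, so it is in capitals too.

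Collagen chain genes as a whole took a smaller part of the reads in the Sparcl1-treated library. They held 1200218 of the control counts, or 4.02% (exact 95% binomial interval 4.01 to 4.03), and 923021 of the treated counts, or 3.43% (3.43 to 3.44). Summed over all chains the level was 40686 CPM in the control and 33936 CPM after Sparcl1, a log2 ratio (treated over control) of -0.26. Its 95% counting interval ran from -0.27 to -0.26. Such intervals come from the exact binomial split of the reads, cover counting error only and treat reads as independent molecules, which reads copied by PCR are not. Col1a1, Col1a2 and Col2a1 alone made up 60.5% of the collagen counts in the control and 58.8% with Sparcl1, so the sum mostly follows these 3 genes.

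Counted by gene, 28 of the 37 measured chains (75.7%) had a ratio below 1, against 50.4% of all 13317 genes with at least 20 summed counts. The median log2 ratio of the chains was -0.18, beside 0.00 for all genes tested. No chain reached the rule of size, a change of 1 log2 unit or more in either direction with an interval that excludes 0, which 0.954% of all genes met on the higher side and 0.946% on the lower side. By a smaller rule, a change of 0.25 log2 units or more with an interval that excludes 0, 13 chains (35.1%) were lower and 2 were higher. The background of that rule was 8.28% lower and 8.99% higher. In what follows, lower and higher by the smaller rule mean these calls.

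The abundant chains made up most of this. Of the 12 chains with at least 20000 summed counts, all 12 had ratios below 1, with log2 values from -0.38 to -0.05, beside 57.7% of the 366 genes that abundant. With smooth trends of the ratio on gene length and GC content removed, a step added after seeing the data, 11 of the 12 did, and Col8a1 turned to 0.0063. Of these 12 chains 5 were lower by the smaller rule, where the background was 10.1% (and 4.64% higher). With total counts as library sizes 3 were, without Col12a1 and Col5a1, and Col12a1 also lost its call with the trends removed. The 9 chains with at least 2000 but fewer than 20000 counts had a median of -0.31, and 7 of them had ratios below 1. Among the 21 chains with at least 2000 counts, 19 had ratios below 1 and 10 were lower by the smaller rule, against 53.4% and 5.47% of the 5702 such genes. None of the 21 was higher by the smaller rule, which 5.23% of those genes were, or by the rule of size, which 0.0526% were. In the 16 chains under 2000 counts the median was -0.03, with 9 ratios below 1, 3 lower and 2 higher. The shares among all genes under 2000 counts were not computed. Among all genes tested, of any abundance, 50.4% had ratios below 1, 8.28% were lower and 8.99% higher.

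**Figure D2:**
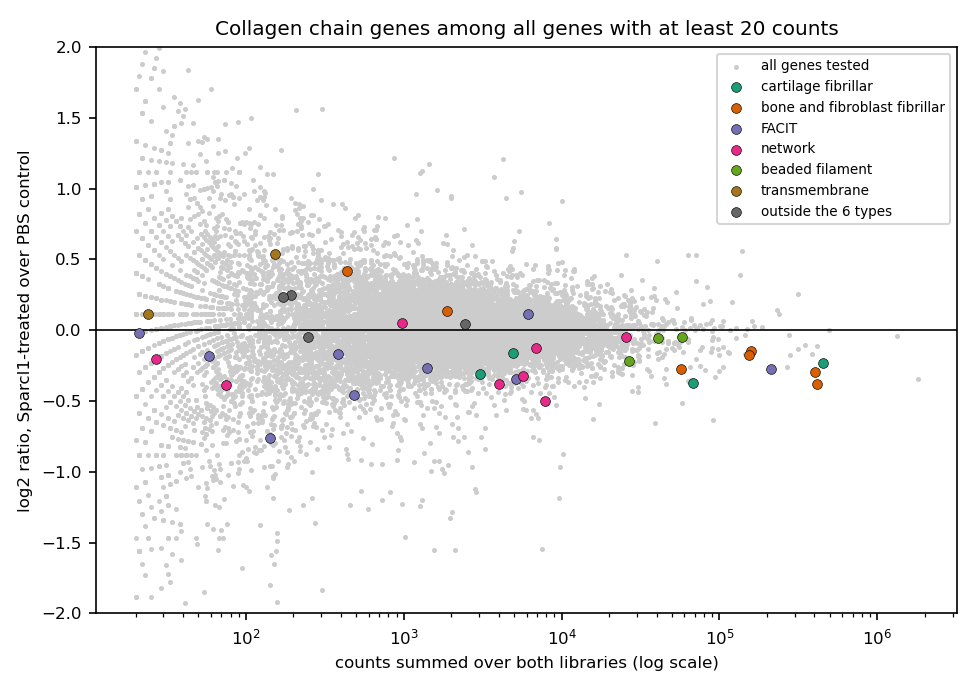
Each gene's log2 ratio of CPM, Sparcl1-treated over PBS control (y axis), against its counts summed over both libraries (x axis, log scale). Grey points are all 13317 genes tested, with 41 beyond the axis, and coloured points the 37 collagen chains by type; all 12 chains to the right of 20000 counts lie below 0.

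Cartilage fibrillar chains all had ratios below 1, beside 50.4% of all genes tested. Col2a1 (chromosome 15, 97975602 to 98004695), the chain of collagen II and the main protein of cartilage fibrils, stood at 8629 CPM in the control and 7332 CPM with Sparcl1. Its log2 ratio of -0.24 (-0.24 to -0.23) lay just outside the smaller rule. Col11a1, which forms the core of the cartilage fibril with Col2a1 and limits its width, was lower by the smaller rule, at 1353 and 1044 CPM (-0.37, -0.40 to -0.35). Its partner Col11a2 moved less, at 91.9 and 82.1 CPM (-0.16, -0.24 to -0.08). Col27a1, a minor fibrillar chain of cartilage, was lower by the smaller rule, at 59.6 and 48.0 CPM (-0.31, -0.42 to -0.21). The difference between the log2 ratios of 2 chains does not depend on library size factors, but it does move with the length and GC trends. Between Col11a1 and Col11a2 it was -0.21 (normal-approximation counting interval -0.29 to -0.13), and between Col2a1 and Col11a1 0.14 (0.12 to 0.16). With the trends removed they were -0.06 and 0.02, both outside these intervals.

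Among the fibrillar chains of bone and fibroblasts, the 5 abundant ones had ratios below 1 and the 2 rarest had ratios above 1. Col1a1 (chromosome 11, 94936224 to 94953042) and Col1a2 (chromosome 6, 4504814 to 4541544) encode the chains of collagen I. Col1a1 stood at 8206 CPM in the control and 6309 CPM with Sparcl1, and Col1a2 at 7779 and 6328 CPM. Both were lower by the smaller rule, with log2 ratios of -0.38 (-0.39 to -0.37) and -0.30 (-0.31 to -0.29). Col1a1 was the larger drop of the pair, by -0.08 (-0.09 to -0.07), or by -0.17 with the trends removed.

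Collagen III and V showed the same direction in their main chains. Col3a1, the chain of the fine fibrils of elastic tissues, had 2878 and 2548 CPM (-0.18, -0.19 to -0.16). Col5a2 had 2940 and 2656 CPM (-0.15, -0.16 to -0.13). Col5a1, the other main chain of collagen V, which starts and thins collagen I fibrils, was lower by the smaller rule at 1098 and 908 CPM (-0.27, -0.30 to -0.25). Col5a3, the rare chain of collagen V, went the other way at 31.5 and 34.5 CPM (0.13, 0.00 to 0.27). Its log2 ratio exceeded that of Col5a1 by 0.41 (0.27 to 0.54).

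Col24a1, a minor fibrillar chain known from developing bone, was higher by the smaller rule. The control library held 195 of its reads and the Sparcl1 library 240, so the log2 ratio was 0.42 (0.14 to 0.70). Col24a1 and Col27a1 share the shortened repeat given above, with 33 exons of 54 bases each, and their log2 ratios differed by 0.73 (0.44 to 1.02). With 1 library of each kind, these differences between chains are beyond counting error only.

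**Figure D3:**
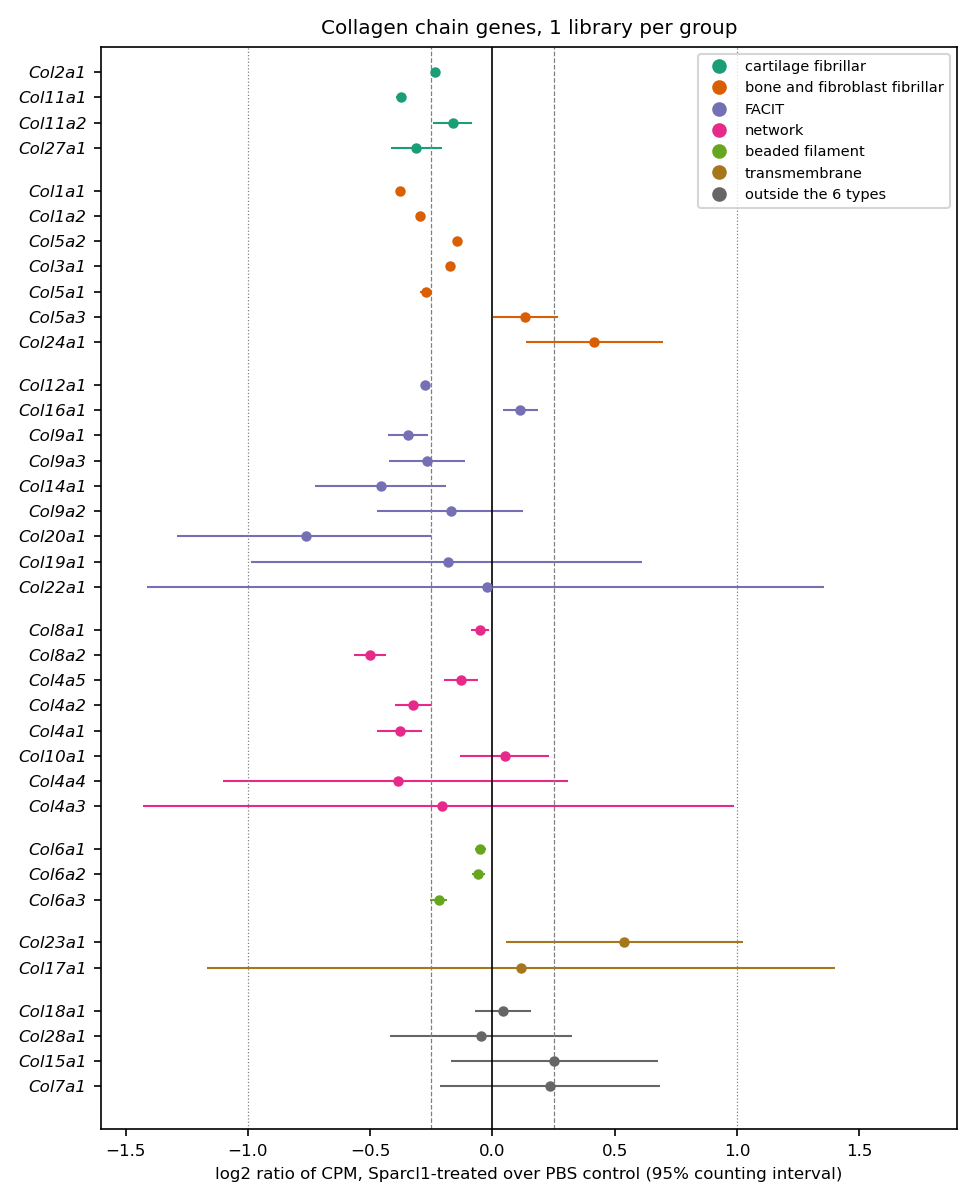
Log2 ratio of CPM, Sparcl1-treated over PBS control (x axis), for each of the 37 measured collagen chains, grouped and coloured by type, with exact 95% counting intervals as bars (1 library per group). Dashed lines mark 0.25 and dotted lines 1 in either direction; 28 of the 37 points lie left of 0 and no point reaches 1.

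Of the 9 FACIT chains 8 had ratios below 1 and 5 were lower by the smaller rule. The shares among all genes tested were 50.4% and 8.28%. The FACIT median was -0.27. Under total counts 3 of the 9 were lower, without Col12a1 and Col9a3, and with the trends removed 4, without Col12a1. Col12a1, which bridges fibrils in tendon, ligament and perichondrium, was by far the most abundant, at 4072 and 3364 CPM (-0.28, -0.29 to -0.26). The chains of collagen IX, which decorate the cartilage fibril, all had ratios below 1. Col9a1 had 101 and 79.6 CPM (-0.34, -0.43 to -0.26) and Col9a3 26.8 and 22.2 CPM (-0.27, -0.42 to -0.11), and both were lower by the smaller rule. Col9a3 overlaps Tcfl5 (195 and 211 counts) on the opposite strand, so reads of the pair may mix if counting ignored strand. For Col9a2, with 210 and 172 counts, the interval held 0 (-0.17, -0.47 to 0.13).

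The remaining FACITs were rare apart from Col16a1, the 1 member with a ratio above 1, at 104 and 113 CPM (0.11, 0.04 to 0.19). Its log2 ratio exceeded that of Col12a1 by 0.39 (0.32 to 0.46), or by 0.22 with the trends removed. Col14a1, a close relative of Col12a1 that is found on tendon and skin fibrils, was lower by the smaller rule with 290 and 195 counts (-0.46, -0.72 to -0.19). Col20a1 had the lowest ratio of any measured chain, from 92 and 50 counts (-0.76, -1.29 to -0.25). Col19a1 (32 and 26 counts) and Col22a1 (11 and 10) were too rare to place, with intervals that held 0.

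Of the 8 measured network chains 7 had ratios below 1 and 3 were lower by the smaller rule. Among all genes tested these shares were 50.4% and 8.28%. Col4a1 and Col4a2, the usual chains of basement membrane collagen IV, were both lower by the smaller rule. Col4a1 had 80.1 and 61.6 CPM (-0.38, -0.47 to -0.29), Col4a2 had 111 and 88.6 CPM (-0.32, -0.40 to -0.25), and the difference between them was within counting error (-0.06, -0.17 to 0.06). These 2 genes lie head to head on chromosome 8, Col4a1 on the minus strand from 11198423 to 11312826 and Col4a2 on the plus strand from 11312805 to 11449287, so their annotated starts overlap by 22 bases. Reads in that overlap cannot be assigned to one gene where the counting ignored strand.

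Col4a5, a chain of a second basement membrane network, was at 126 and 115 CPM (-0.13, -0.20 to -0.06). Its head-to-head neighbour on chromosome X, Col4a6, had 3 and 1 counts, too few for a ratio. Col4a3 (15 and 12 counts) and Col4a4 (44 and 31), another such pair on chromosome 1 with 71 bases between the genes, were rare in both libraries, and their intervals held 0. Col4a5 exceeded Col4a1 in log2 ratio by 0.25 (0.14 to 0.37).

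The short-chain network collagens differed from each other. Col8a2 was lower by the smaller rule at 162 and 115 CPM (-0.50, -0.57 to -0.44). Col8a1, which assembles with it in the hexagonal sheets under endothelia, was at 456 and 440 CPM (-0.05, -0.09 to -0.02). The 2 log2 ratios lay 0.45 apart (0.38 to 0.53), or 0.59 apart with the trends removed. Col10a1, the collagen of hypertrophic cartilage, was low at 17.0 and 17.6 CPM (0.05, -0.13 to 0.23). Against Col2a1 its log2 ratio was higher by 0.28 (0.10 to 0.47). Col10a1 lies within Nt5dc1 on the opposite strand, which had 513 and 467 counts, so reads of the 2 genes may mix if counting ignored strand.

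The 3 measured beaded filament chains had ratios slightly below 1, with a median log2 ratio of -0.06, or -0.12 with the trends removed. Col6a1 and Col6a2, which assemble with Col6a3 into collagen VI of the matrix around each chondrocyte, had 1035 and 1000 CPM (-0.05, -0.07 to -0.03) and 737 and 708 CPM (-0.06, -0.09 to -0.03). Col6a1 and Col6a2 lie 85.2 kb apart on chromosome 10, and their log2 ratios differed by 0.01 (-0.03 to 0.05), or by -0.06 with the trends removed. Col6a3, on chromosome 1, was at 507 and 435 CPM (-0.22, -0.25 to -0.18), so that Col6a1 exceeded it by 0.17 (0.13 to 0.21), or by 0.06 with the trends removed. None of the 3 was lower by the smaller rule, beside 8.28% of all genes tested. Their share of all collagen counts was 5.60% in the control and 6.32% with Sparcl1.

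The transmembrane collagens were nearly silent. Col23a1 was higher by the smaller rule from 65 and 87 counts (0.54, 0.06 to 1.02), and Col17a1, a hemidesmosome component of epithelia, had 12 counts in each library. The chains outside these 6 types also showed no lower member. Col18a1, whose C-terminal fragment is endostatin, had 42.4 and 43.6 CPM (0.04, -0.07 to 0.16), and it overlaps Slc19a1 on the opposite strand. Col15a1, its close relative, had 92 and 101 counts, Col7a1, the anchoring fibril chain of skin, 82 and 89, and Col28a1 131 and 117. The intervals of all 4 held 0.

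Levels can be compared between chains only per length. Per kb of merged exons, Col1a1 was first in both libraries, at 1250 and 961 CPM per kb, before Col2a1 (934 and 793) and Col1a2 (626 and 509). Col5a2, Col3a1, Col12a1 and Col6a1 followed between 236 and 307 CPM per kb in the control. Down to Col4a3 and Col22a1, at 0.051 and 0.0405 CPM per kb in the control, the measured chains span more than 4 orders of size on the plot of levels. In the treated library Col6a1 stood above Col12a1 (228 and 221 CPM per kb) and Col6a2 above Col11a1, at 81.9, the reverse of the control. Per kb of coding sequence Col12a1 stayed above Col6a1, at 443 and 337 CPM in the control and 366 and 325 with Sparcl1. The change of order between Col6a2 and Col11a1 held by that length too.

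The order at the top depends on the length used. Merged exons, which pool all annotated transcripts, came to 12426 bases for Col1a2 and 6563 for Col1a1, against 4116 and 4359 coding bases. Per kb of coding sequence, Col2a1 came first and Col1a2 second in both libraries. Collagen I is assembled from 2 chains of Col1a1 and 1 of Col1a2, and the ratio of Col1a1 to Col1a2 was 1.997 in the control and 1.89 with Sparcl1 per kb of merged exons, but 0.996 and 0.941 per coding kb. Levels of the collagen IX chains were unequal by both lengths: Col9a1 was 8.67 times Col9a2 per kb of merged exons in the control and 10.6 times per coding kb. The ratio of Col2a1 to Col1a1 went from 0.747 to 0.825 per kb of merged exons, and from 1.03 to 1.14 per coding kb.

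**Figure D4:**
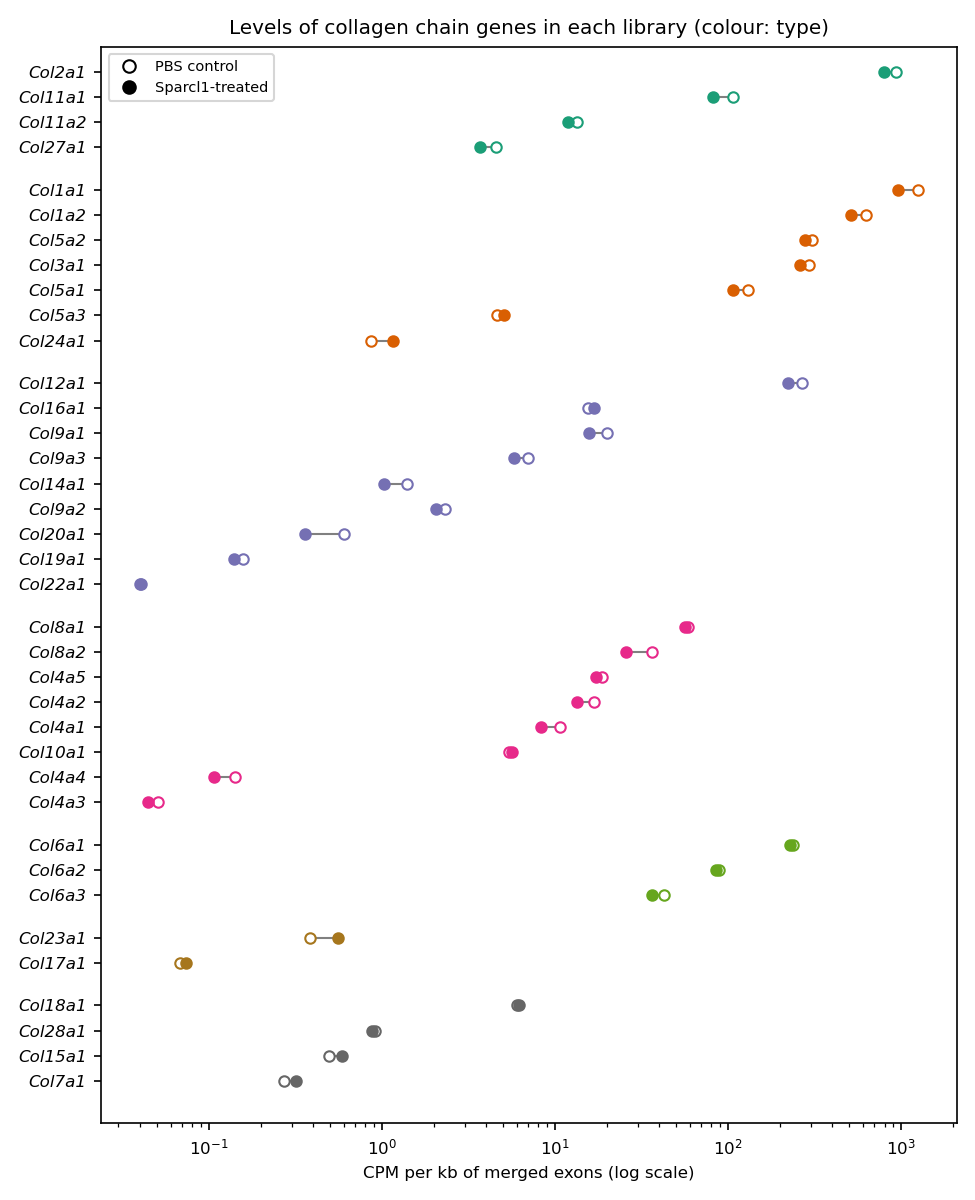
Level of each measured collagen chain in the PBS control library (open points) and the Sparcl1-treated library (filled points), in CPM per kb of merged exons on a log scale, grouped and coloured by type. Col1a1, Col2a1 and Col1a2 lie furthest right, and the filled point lies left of the open one for 28 of the 37 chains.

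The makeup of the collagen reads changed little. Bone and fibroblast fibrillar chains held 56.4% of collagen counts in the control and 55.4% with Sparcl1, cartilage fibrillar chains 24.9% and 25.1%, FACITs 10.6% in both, and network chains 2.35% and 2.47%. Summed over each type, the log2 ratios were -0.25 for cartilage fibrillar, -0.29 for bone and fibroblast fibrillar, -0.27 for FACIT, -0.19 for network and -0.09 for beaded filament chains. The rare transmembrane chains, with 78 and 101 counts in all, had 0.49 (0.05 to 0.94), and the chains outside these types 0.06 (-0.04 to 0.16). The sums for cartilage fibrillar and for bone and fibroblast fibrillar chains were thus both below 0. Their counting intervals, -0.26 to -0.24 and -0.29 to -0.28, did not overlap. Medians by gene were -0.27 and -0.18, and Col5a3 and Col24a1 of the second group had ratios above 1.

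Across the 37 chains, the log2 ratio was weakly related to abundance (Pearson's r -0.28, Spearman's rho -0.30 with log2 summed counts) and hardly to the longest glycine run (-0.10 and -0.07). These are descriptions over genes of the same 2 libraries and carry no test. In all 11145 genes with at least 200 counts and a length, the log2 ratio was related to GC content (r 0.29) and to log2 merged exon length (r -0.23). With the smooth trends on both removed, the median of the chains was -0.15 and 13 were lower by the smaller rule, of which 12 were shared with those named above.

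RefSeq promoter sequences (GRCm38.p6) were at hand for 29 of the 37 measured chains, in 32 windows. None was at hand for Col2a1, Col1a1, Col12a1, Col5a2, Col9a3, Col14a1, Col22a1 or Col4a3, so the shares below leave out several of the most abundant chains. In the 250 bases before the start, TATAAA on either strand stood in 4 of the 32 windows (12.5%), beside 12.4% of all 32851 windows of that length. CCAAT on either strand stood in 11 (34.4%), beside 33.9% of all. GGGCGG, the GC box, stood in 17 (53.1%, beside 32.7% of all), and ACAATG, a short form of the Sox site, in 1 (3.13%, beside 10.7%), again on either strand. CCAAT and ACAATG share the letters CAAT. No test was made of these shares. Among fibrillar chains with ratios below 1, Col3a1 and Col11a2 had a TATAAA, Col11a1 and Col1a2 a CCAAT, and Col5a1 and Col27a1 neither. Of those with ratios above 1, Col5a3 had a CCAAT and Col24a1 neither. The windows of Col3a1 and Col11a1 serve as examples, printed 5′ to 3′ with TATAAA and CCAAT matches alone in capitals. The CCAAT of Col11a1 reads ATTGG on the strand shown. The Col11a1 window also holds GGGCGG, which is left in lower case.
Col3a1, chr1:45311288-45311537, + strand: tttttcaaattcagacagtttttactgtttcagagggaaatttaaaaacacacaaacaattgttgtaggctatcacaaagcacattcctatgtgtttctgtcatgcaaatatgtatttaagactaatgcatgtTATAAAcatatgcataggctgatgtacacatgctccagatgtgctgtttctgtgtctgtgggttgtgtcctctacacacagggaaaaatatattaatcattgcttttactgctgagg
Col11a1, chr3:114030290-114030539, + strand: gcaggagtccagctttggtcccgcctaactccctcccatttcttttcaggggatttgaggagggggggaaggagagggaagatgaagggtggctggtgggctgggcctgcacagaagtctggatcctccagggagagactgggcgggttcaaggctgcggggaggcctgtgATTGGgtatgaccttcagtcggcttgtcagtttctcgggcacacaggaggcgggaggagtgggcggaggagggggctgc
A match is a description of the letters and not a measured site.

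Genes that fold, process and bind collagen were counted from 7 lists, and none of their members passed the rule of size. Of all genes tested, 0.946% were lower and 0.954% higher by that rule, and 8.28% lower and 8.99% higher by the smaller rule. Of 22 genes for chain folding and modification 1 was lower and none was higher by the smaller rule, with a median log2 ratio of -0.02. The most abundant, P4hb, a subunit of the prolyl hydroxylase that stabilises the helix, stood at 1591 and 1588 CPM. Of 12 measured genes for procollagen processing and crosslinking none was lower and 1 was higher, with a median of -0.01. Lox, which crosslinks fibrils, led them at 7158 and 6386 CPM (-0.16, -0.17 to -0.16).

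Fibril surface proteins had a median nearest to that of the chains, -0.20 over 15 genes. By the smaller rule 7 were lower and 1 higher, beside 8.28% and 8.99% of all genes tested. The most abundant of the 15, the fibril-binding proteoglycan gene Fmod, was at 5787 and 5278 CPM. Collagen receptors had 3 lower and 2 higher of 11 measured (median -0.06), led by Itgb1, the shared subunit of collagen-binding integrins, at 1418 and 1303 CPM. Collagen-degrading enzymes had none in either direction of 6 measured (median 0.01), and the collagenase gene Mmp13 stood at 313 and 314 CPM. Partners of collagen IV in basement membranes had 2 lower and 1 higher of 15 (median -0.02), led by the perlecan gene Hspg2 at 1627 and 1577 CPM. Of 7 transcription factors of collagen genes 1 was lower and 1 higher (median -0.13), led by Sox9, the driver of Col2a1, at 171 and 145 CPM. Whether the chains differ from these lists was not tested.

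**Figure D5:**
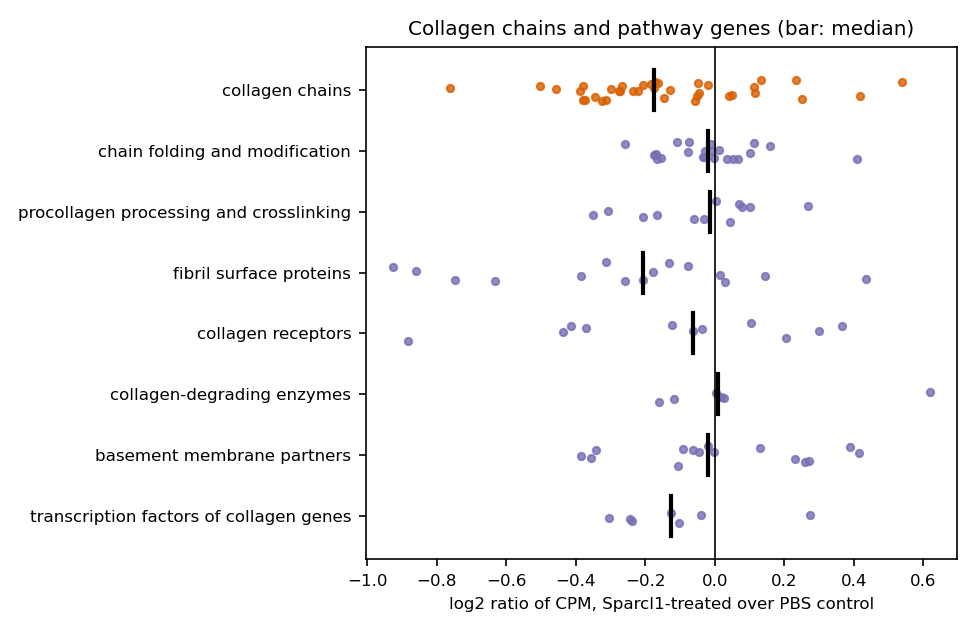
Log2 ratio of CPM, Sparcl1-treated over PBS control (x axis), for the 37 collagen chains and the measured genes of 7 lists of the collagen pathway (rows), with each gene a point spread vertically for display and the black bar the row's median. Medians are -0.18 for the chains, -0.02 for chain folding and modification and -0.20 for fibril surface proteins.

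Some markers of other cell types had ratios below 1 alongside the collagen chains. Beside the counts below, 50.4% of all genes tested had ratios below 1 and 8.28% were lower by the smaller rule. Of 9 osteoblast markers 7 were measured, all 7 had ratios below 1, 3 were lower by the smaller rule, and their summed level was 262 CPM in the control and 190 CPM with Sparcl1. Of 7 smooth muscle and pericyte markers 6 were measured, all 6 had ratios below 1, 4 were lower, and the sum went from 1548 to 1104 CPM. Fibroblast markers summed to 665 and 690 CPM, with 5 of 7 measured ratios below 1, and tendon markers to 82.3 and 84.5 CPM, with 2 of 4 below 1. Of the 10 chondrocyte markers, which include Col2a1 itself, 7 had ratios below 1 and 4 were lower. No marker on the osteoblast or smooth muscle list was at 0 in both libraries, and the part of these cell types in the collagen ratios was not tested.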

How the data were processed

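RNA was sequenced from primary mouse chondrocytes, in 1 library per group. The authors deposited counts, whole reads per gene symbol. The submitters' processing notes name build mm10 and the tools HTSeq, STAR, FastQC and Trimmomatic. Their versions, the annotation and the strand setting are not given in the sources used here. Columns were matched to libraries by name.

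Counts were scaled with TMM factors (0.988 and 1.01) from edgeR 4.0.16 in R 4.3.3, with all genes in the fit. DESeq2 1.42.0 size factors were an alternative. Python 3.11.15 with scipy 1.17.1 and statsmodels 0.14.6 gave ratios, exact Clopper-Pearson intervals and lowess trends. Intervals between 2 chains use the normal approximation to log counts. Lengths and coordinates come from GENCODE M21. The ratios, their exact intervals and the rule of size were tested on simulated data with counting error only. The smaller rule, the removal of trends and the intervals between 2 chains were not tested in this way. The members, the types and the pathway and marker lists were chosen with earlier results of these data known. Every measured chain is named. Of each pathway list the most abundant member is named, and of all lists any member past the rule of size. Acan, Slc19a1, Nt5dc1, Lyz2 and Tcfl5 were named after their values were seen. So were the other chondrocyte markers and the markers at 0 in both libraries. Dpep1 and Tnmd, markers past the rule of size, were lower (log2 -1.20 and -1.01).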

Additional observations from a re-analysis of the deposited data

How the results depend on the processing

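With 1 library per group no replicate could be left out, and culture-to-culture variation is unknown. No paired analysis was possible because each group has 1 library. DESeq2 size factors, upper-quartile factors, TMM factors computed without the collagen genes and a prior count of 2 kept all 13 lower calls of the smaller rule, and so did no count filter and a minimum of 100 summed counts. With total counts as library sizes, 10 of the 13 remained: Col12a1, Col5a1 and Col9a3 dropped out, and the median of the chains was -0.14. That scaling shifts every ratio by 0.03 and turned Col22a1, which has 21 counts, above 1. Removing length and GC trends, a step chosen after seeing the data, gave a median of -0.15, with Col12a1 lost and Col2a1 gained, and changed the sign of Col8a1, Col22a1 and Col18a1. At 1.5-fold, 1 chain was lower (Col20a1), and at 3-fold none. Without a count filter 1 chain was higher by the rule of size, Col6a5, from 0 and 7 counts. Without mitochondrially encoded genes, collagens were 4.10% and 3.50% of counts. Per coding kb in place of merged exons, the log2 level ratio of Col1a1 to Col1a2 turned to -0.0056 and -0.0871, that of Col2a1 to Col1a1 to 0.0393 and 0.1833 and, in the control, that of Col3a1 to Col5a2 to 0.0013, since the 2 lengths differ. Of the 9 chains under 200 counts, Col4a4 and Col15a1 passed 0.25 in size but had intervals that held 0.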
